A study of Mus musculus with 18 samples.

Results

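The genes described here are 3 CXC chemokines and 2 of their receptors that move and hold neutrophils: Cxcl1, Cxcl2, Cxcl12, Cxcr2 and Cxcr4. They were taken by symbol from each of the 18 count tables, and all 5 were found among the 22049 genes listed. The tables come from female BALB/cJ mice, a white inbred laboratory strain. Tumour-bearing mice carried 4T1-tdTomato-luc2 cells, a fluorescent and luminescent derivative of the 4T1 mouse mammary carcinoma line, of which 2000000 had been placed in a mammary fat pad; healthy mice had been given none. Lungs, biomaterial scaffolds implanted in the mouse, and spleens were taken at 7, 14 and 21 days, when the mice were 9, 10 and 11 weeks old, and their cells were measured by Drop-seq, in which a barcoded bead is caught in a droplet with a cell and each captured transcript is counted by its unique molecular identifier (UMI). Each combination of tissue, status and day is 1 library, so that 3 libraries of 3 different days stand for a tissue and status. The animals behind a library are not numbered in the labels, and the p-values given here measure the spread between libraries.

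CXCL1 and CXCL2 are secreted by activated macrophages, neutrophils, endothelium and stroma, and both bind CXCR2, the receptor through which mature neutrophils leave the bone marrow and enter inflamed tissue. CXCL12 is made chiefly by stromal and endothelial cells and binds CXCR4, which holds immature neutrophils in the marrow, is lost as they mature and is regained as they age; B cells, T cells and macrophages also carry it. The 4T1 tumour is known for raising the number of neutrophils in the blood, lung and spleen of its host.

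Cxcl1 (GRCm38 chr5:90891245-90893121) and Cxcl2 (chr5:90903899-90905938) are neighbours whose starts lie 12654 bases apart. Cxcl12 lies at chr6:117168535-117181368, Cxcr2 at chr1:74153994-74161246 and Cxcr4, on the minus strand, at chr1:128588199-128592299. The 150 bases before the starts of Cxcl1 and Cxcl2 are shown because both genes answer the same inflammatory signals and neutrophil-like cells held much of the UMIs of Cxcl2 and few of those of Cxcl1. The sequences are those of RefSeq for GRCm38.p6, both on the plus strand, chr5:90891095-90891244 and chr5:90903749-90903898. Capitals mark a run of 14 bases that both hold.
Cxcl1: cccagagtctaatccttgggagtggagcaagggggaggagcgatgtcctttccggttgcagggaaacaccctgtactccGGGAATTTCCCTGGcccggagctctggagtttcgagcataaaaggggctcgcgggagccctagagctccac
Cxcl2: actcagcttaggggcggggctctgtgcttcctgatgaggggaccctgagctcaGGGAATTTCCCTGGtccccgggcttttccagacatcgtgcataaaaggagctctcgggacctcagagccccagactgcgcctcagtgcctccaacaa
The run begins 71 bases before the start of Cxcl1 and 97 bases before that of Cxcl2. Its first letters, GGGAATTTC, are a form of the motif bound by NF-kB, the factor that carries inflammatory signals to the nucleus. These letters, or GAAATTCCC on the other strand, occurred in 85 of 32851 promoters of the RefSeq table (0.259%), and not in the windows of Cxcl12, Cxcr2 or Cxcr4. Both sequences also share gcataaaagg, 36 and 59 bases before their starts. A match is a description of the letters, not evidence of binding.

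The libraries held 292765 to 4530115 UMIs and 513 to 3415 barcodes, and 24536 of 26397 barcodes were kept as cells. Libraries of 1 day had cell barcodes in common. Day 7 had 279 such barcodes among 5684, day 14 had 103 among 8932 and day 21 had 1046 among 7545. Where a barcode in common was kept in a single library, and only if that library held 5 or more times as many of its UMIs as any other, the healthy lung of day 21 lost 80.05% and the healthy spleen of day 21 lost 93.27% of their UMIs, and no other library lost over 14.3%. Values with the shared barcodes assigned in this way are given beside each gene's values from these 2 libraries. Levels below are UMI counts per 1000000 UMIs of the kept cells (CPM) of a library, or of 1 class of its cells where that is said. In such sums, fewer cells of a type and less RNA per cell cannot be told apart.

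Cxcr2, the receptor for CXCL1 and CXCL2, was higher in every tumour-bearing library than in every healthy library of the same tissue, in all 3 tissues. In lung it stood at 1653, 2102 and 1839 CPM at days 7, 14 and 21 in tumour-bearing mice, against 225.8, 135.6 and 6.54 in healthy mice. In spleen it stood at 482.2, 642.3 and 432.1 in tumour-bearing mice, against 50.12, 58.27 and 6.85 in healthy mice. In scaffolds it stood at 110.2, 185.7 and 835.3 in tumour-bearing mice, against 68.66, 20.06 and 100.4 in healthy mice. The tumour-bearing lungs were the highest of all libraries and close to each other, whereas the tumour-bearing scaffolds were spread widely and only that of day 21 came above the spleens. Group means were 1865 ± 226 in tumour-bearing lungs, 377 ± 399 in tumour-bearing scaffolds and 519 ± 110 in tumour-bearing spleens, against 122.7 ± 110 in healthy lungs, 63.05 ± 40.5 in healthy scaffolds and 38.4 ± 27.6 in healthy spleens (SD, n = 3 each). Placed in order of their means, the tumour-bearing lungs stood apart from the next group, the tumour-bearing spleens, and every later neighbour overlapped with the group before it.

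**Figure D1:**
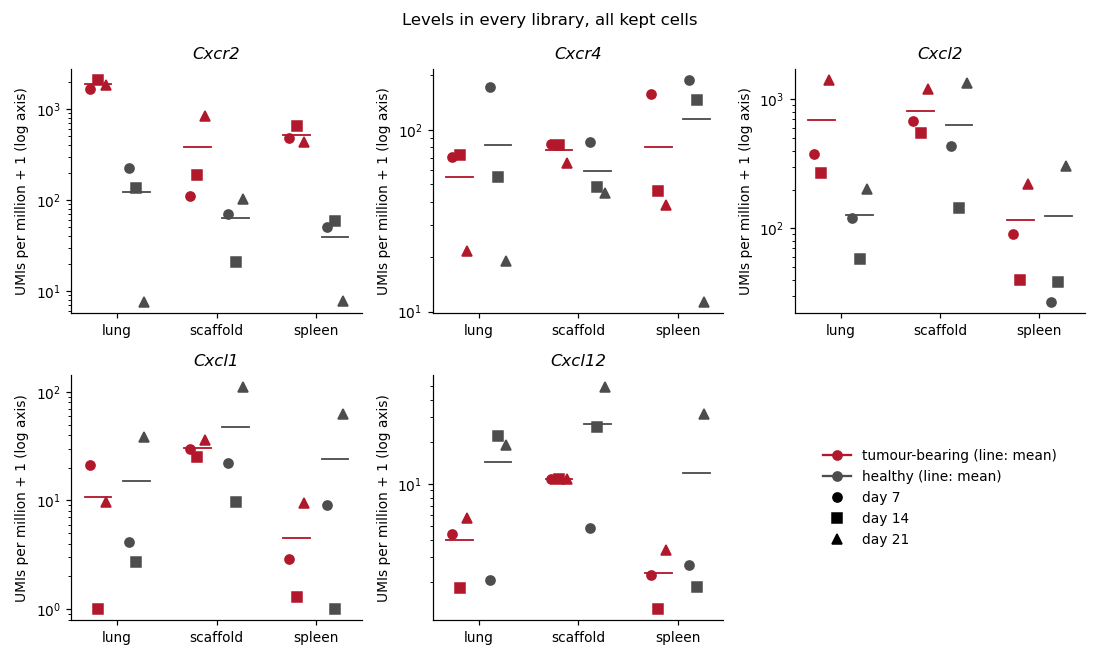
Level of each gene in the 18 libraries, as CPM of the kept cells plus 1 on a log axis, by tissue, with tumour-bearing libraries left of healthy ones; symbols give the day and lines the mean of 3 libraries. For Cxcr2, the tumour-bearing libraries lie above the healthy ones in all 3 tissues, and for Cxcl2 in lung.

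In edgeR's quasi-likelihood fit across 11158 genes with Benjamini-Hochberg adjustment, Cxcr2 rose in tumour-bearing lung by 4.75 ± 0.85 on the log2 scale (SE derived from the F statistic, adjusted p = 0.0049) and in tumour-bearing spleen by 4.12 ± 0.82 (adjusted p = 0.0133). In scaffolds the difference was 2.45 ± 0.77, with an edgeR adjusted p of 0.523 and an unadjusted p of 0.0069. Of the 5 genes, 2 were called in lung, 0 in scaffold and 1 in spleen, where 9.07%, 0.161% and 3.31% of all genes tested were called. DESeq2 also called 2, 0 and 1 of the 5, and at an unadjusted p under 0.05 edgeR counted 2, 1 and 1. All tumour-bearing libraries lay above all healthy ones for 2 of the 5 genes in lung, 1 in scaffold and 1 in spleen, against 9.11%, 2.06% and 6% of all genes. With shared barcodes assigned to 1 library, the differences of Cxcr2 were 4.51 ± 0.73 in lung (edgeR adjusted p = 0.00098) and 3.82 ± 0.75 in spleen (adjusted p = 0.0048). Both calls were lost without the libraries of day 14 (edgeR adjusted p = 0.0958 in lung and 0.272 in spleen), and the spleen call also without the day as a block (adjusted p = 0.0715). Most calls over all genes were lost there as well. Of 11833 genes, 40 were called higher and 2 lower in lung without day 14, and 0 and 0 in spleen. With no block, 72 were called higher and 0 lower of 11158 in spleen, against 311 and 58 with it.

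**Figure D2:**
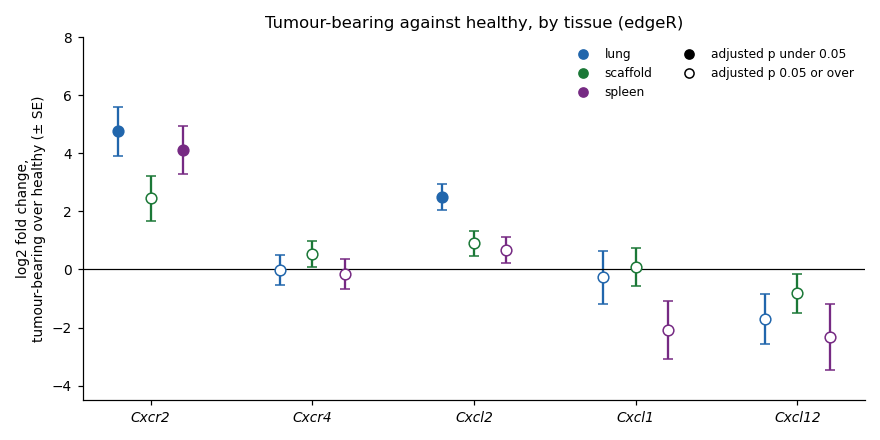
Fitted difference between tumour-bearing and healthy libraries for each gene and tissue, in log2 units with standard errors derived from the F statistic. Filled points have an edgeR adjusted p under 0.05. Cxcr2 lies furthest above 0 in lung and spleen, at 4.75 and 4.12, and Cxcl2 in lung at 2.50.

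The rise of Cxcr2 was not shown to differ between tissues. The effect in lung exceeded that in scaffold by 2.30 ± 1.09 (edgeR adjusted p = 0.530) and that in spleen by 0.64 ± 1.13 (adjusted p = 0.880), and the effect in spleen exceeded that in scaffold by 1.67 ± 1.08 (adjusted p = 0.745). In none of these 3 contrasts was a member called, where 0%, 0.0179% and 0% of all genes were called; at an unadjusted p under 0.05 edgeR counted 1, 1 and 0 members, and DESeq2 called 0 in each. The fitted change of the gap between tumour-bearing and healthy libraries was 2.44 ± 0.57 log2 units per week in lung, 1.29 ± 0.49 in scaffold and 1.30 ± 0.63 in spleen, with edgeR adjusted p of 0.505, 1 and 0.624. No member was called in these trends, where 0.0269%, 0.0358% and 0.0179% of all genes were called, and at an unadjusted p under 0.05 edgeR counted 2, 2 and 0. DESeq2 was not run on them. The healthy lung and spleen of day 21 held 4 and 2 Cxcr2 UMIs, and they are the 2 libraries that lost most of their UMIs when barcodes were assigned. Once shared barcodes were assigned, the change per week of Cxcr2 was 2.32 ± 0.55 in lung (edgeR adjusted p = 0.0049), 1.28 ± 0.44 in scaffold (adjusted p = 0.450) and 1.04 ± 0.72 in spleen (adjusted p = 0.793), and that of Cxcl1 in lung was -3.45 ± 1.02 (adjusted p = 0.047). So 2 of the 5 genes were then called in lung and 0 in scaffold and spleen, where 1.68%, 0.21% and 0.567% of 10943 genes were called. The fits of the change per week had 3 residual degrees of freedom. With barcodes assigned, the healthy lung of day 21 held 1 Cxcr2 UMI among 113896 UMIs. The Cxcl1 call rested on 23, 0 and 5 UMIs in tumour-bearing lungs at days 7, 14 and 21, against 1, 2 and 2 in healthy lungs. With no filter on low counts, Cxcr2 was called in lung as well, at 2.69 log2 units per week (edgeR adjusted p = 0.00029).

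Cxcl2, a ligand of CXCR2, also rose in lung. It stood at 377.8, 266.8 and 1415 CPM in tumour-bearing lungs at days 7, 14 and 21, against 119.2, 57.38 and 199.6 in healthy lungs. Every tumour-bearing lung lay above every healthy lung. The difference was 2.50 ± 0.44 log2 units (edgeR adjusted p = 0.0047), and 2.90 ± 0.64 with shared barcodes assigned to 1 library (adjusted p = 0.0093). The call was lost without day 14 (edgeR adjusted p = 0.0639), without the day as a block (adjusted p = 0.146), and when shared barcodes were assigned and day 21 was left out as well (adjusted p = 0.083). Over all genes these 3 fits called 40 higher and 2 lower, 379 and 65, and 310 and 14 in lung, against 687 and 325 in the main fit.

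In scaffolds Cxcl2 was high with or without a tumour. It stood at 681.6, 541.7 and 1205 CPM in tumour-bearing scaffolds, against 434, 143.5 and 1327 in healthy scaffolds, and the healthy scaffold of day 21 lay above all 3 tumour-bearing ones. The difference was 0.90 ± 0.42 (edgeR adjusted p = 1). In spleens it stood at 90.21, 38.86 and 219.4 in tumour-bearing mice, against 25.87, 37.46 and 304.7 in healthy mice, with a difference of 0.68 ± 0.44 (edgeR adjusted p = 0.447). The healthy spleen of day 21 held the highest of these 6 values, from 89 UMIs. Of its UMIs 19698 remained when shared barcodes were assigned, and 0 of them were Cxcl2. The healthy spleen of day 7 then held 1 Cxcl2 UMI in place of 16. With barcodes assigned, the difference in spleen was 2.42 ± 0.79 (edgeR adjusted p = 0.0982). The tumour effect on Cxcl2 in lung exceeded that in scaffold by 1.60 ± 0.60 (edgeR adjusted p = 0.485) and that in spleen by 1.82 ± 0.62 (adjusted p = 0.401). Group means were 687 ± 633 CPM in tumour-bearing lungs, 810 ± 350 in tumour-bearing scaffolds and 116 ± 93.0 in tumour-bearing spleens, against 125 ± 71.3 in healthy lungs, 635 ± 617 in healthy scaffolds and 123 ± 158 in healthy spleens (SD, n = 3 each). In the order of these means, from tumour-bearing scaffolds down to tumour-bearing spleens, every group overlapped with the next.

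Cxcl1, the second ligand of CXCR2, did not follow its neighbour. In lung it was found in 24, 0 and 37 UMIs in tumour-bearing mice, or 20.38, 0 and 8.68 CPM, against 3, 2 and 23 UMIs in healthy mice, or 3.14, 1.74 and 37.63 CPM. The count of 0 at day 14 allows up to 2.44 CPM, for counting error only. In scaffolds it stood at 28.66, 24.25 and 35.34 CPM in tumour-bearing mice, against 21.19, 8.72 and 110.8 in healthy mice. In spleens it stood at 1.87, 0.28 and 8.48 in tumour-bearing mice, from 3, 1 and 25 UMIs, against 8.08, 0 and 61.62 in healthy mice, from 5, 0 and 18 UMIs. Tumour-bearing and healthy libraries overlapped in all 3 tissues, and in each tissue the highest value was that of a healthy library of day 21. With shared barcodes assigned, the healthy lung and spleen of day 21 held 2 and 0 Cxcl1 UMIs, while the healthy scaffold of day 21 kept 368 of 373. The tumour-bearing lung and spleen of day 21 then held 5 and 8 Cxcl1 UMIs, in place of 37 and 25. The fitted differences were -0.27 ± 0.91 in lung, 0.09 ± 0.64 in scaffold and -2.09 ± 1.01 in spleen (edgeR adjusted p = 0.866, 1 and 0.293). The sign in lung turned to 1.32 when shared barcodes were assigned and to 1.82 without day 21, and the sign in scaffold turned to -0.52 without day 14. Group means were 9.69 ± 10.2 CPM in tumour-bearing lungs, 29.4 ± 5.58 in tumour-bearing scaffolds and 3.54 ± 4.35 in tumour-bearing spleens, against 14.2 ± 20.3 in healthy lungs, 46.9 ± 55.7 in healthy scaffolds and 23.2 ± 33.5 in healthy spleens (SD, n = 3 each). In the order of these means, from healthy scaffolds down to tumour-bearing spleens, every group overlapped with the next.

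Cxcl12, the ligand of CXCR4, was the rarest of the 5 genes in UMIs. In scaffolds it stood at 9.79, 9.92 and 9.92 CPM in tumour-bearing mice, against 3.82, 24.43 and 48.72 in healthy mice. The tumour-bearing scaffolds were level over the 3 weeks, and the healthy ones lay on both sides of them. In lung it was found in 4, 1 and 20 UMIs in tumour-bearing mice, or 3.40, 0.81 and 4.69 CPM, against 1, 24 and 11 UMIs in healthy mice, or 1.04, 20.87 and 18 CPM. In spleen it was found in 2, 1 and 7 UMIs in tumour-bearing mice, or 1.24, 0.28 and 2.37 CPM, against 1, 1 and 9 UMIs in healthy mice, or 1.62, 0.83 and 30.81 CPM. The groups overlapped in all 3 tissues, and the fitted differences were -1.71 ± 0.87 in lung, -0.81 ± 0.67 in scaffold and -2.32 ± 1.14 in spleen (edgeR adjusted p = 0.212, 1 and 0.305). With shared barcodes assigned, the healthy lung of day 21 held 3 Cxcl12 UMIs, or 26.3 CPM, the healthy spleen of day 21 held 0, and the differences were -2.10 ± 1.02, -1.02 ± 0.65 and -1.16 ± 1.97 (edgeR adjusted p = 0.222, 1 and 0.828). Group means were 2.97 ± 1.97 in tumour-bearing lungs, 9.88 ± 0.076 in tumour-bearing scaffolds and 1.30 ± 1.05 in tumour-bearing spleens, against 13.3 ± 10.7 in healthy lungs, 25.7 ± 22.5 in healthy scaffolds and 11.1 ± 17.1 in healthy spleens (SD, n = 3 each). In the order of these means only the step between tumour-bearing scaffolds and tumour-bearing lungs had no overlap.

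Cxcr4, the retention receptor, was not called in any tissue. In lung it stood at 69.62, 71.58 and 20.41 CPM in tumour-bearing mice, against 171.4, 53.9 and 18 in healthy mice. In scaffolds it stood at 82.96, 81.56 and 64.47 in tumour-bearing mice, against 84.35, 47.54 and 43.67 in healthy mice. In spleens it stood at 156.2, 44.97 and 37.65 in tumour-bearing mice, against 187.5, 144 and 10.27 in healthy mice. The groups overlapped in each tissue, and the fitted differences were -0.02 ± 0.52 in lung, 0.54 ± 0.46 in scaffold and -0.15 ± 0.51 in spleen (edgeR adjusted p = 0.987, 1 and 0.911). The sign in lung turned to 0.74 without day 7 and that in spleen to 0.63 without day 14. The differences became, once shared barcodes were assigned, -0.32 ± 0.45 in lung and -0.60 ± 0.46 in spleen (edgeR adjusted p = 0.720 and 0.563). The lowest value of each of the 6 groups was that of day 21; with shared barcodes assigned, the healthy lung and spleen of day 21 held 6 and 1 Cxcr4 UMIs, or 52.7 and 50.8 CPM, beside 54.7 CPM in the healthy lung of day 14. Group means were 53.9 ± 29.0 CPM in tumour-bearing lungs, 76.3 ± 10.3 in tumour-bearing scaffolds and 79.6 ± 66.4 in tumour-bearing spleens, against 81.1 ± 80.2 in healthy lungs, 58.5 ± 22.5 in healthy scaffolds and 114 ± 92.4 in healthy spleens (SD, n = 3 each), and every group overlapped with its neighbours in that order.

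The share of Cxcr2 among the UMIs of both receptors sets the recruitment receptor against the retention receptor over all cells of a library, whatever their type. In lung it was 96.0%, 96.7% and 98.9% in tumour-bearing mice at days 7, 14 and 21, against 56.8%, 71.6% and 26.7% in healthy mice, the last from 15 receptor UMIs. The means were 97.2 ± 1.53% in tumour-bearing lungs and 51.7 ± 22.9% in healthy lungs (SD, n = 3 each), and the difference of 45.5 percentage points had a 2-sided exact permutation p of 0.1, the smallest that 3 against 3 libraries allow. With shared barcodes assigned, the healthy lung of day 21 held under 10 receptor UMIs and was left out, and the means were 97.3 ± 1.61% in tumour-bearing lungs and 64.7 ± 9.76% in healthy lungs (SD, n = 3 and 2; difference 32.7 points, 2-sided exact permutation p = 0.2). In spleen it was 75.5%, 93.5% and 92.0% in tumour-bearing mice, against 21.1% and 28.8% in healthy mice at days 7 and 14; the healthy spleen of day 21 held under 10 receptor UMIs and was left out. Tumour-bearing spleens lay above healthy ones, with an exact permutation p of 0.2, the smallest that 3 against 2 allow. In scaffolds it was 57.1%, 69.5% and 92.8% in tumour-bearing mice, against 44.9%, 29.7% and 69.7% in healthy mice. The groups overlapped, with a difference of 25.0 points (2-sided exact permutation p = 0.3, with libraries permuted without regard to day). The tumour-bearing scaffold was the higher at each of the 3 days, and with days paired the 2-sided exact permutation p was 0.25, the smallest that 3 pairs allow.

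Between tissues, Cxcl2 was called in 4 of the 6 contrasts made, more than any other member. In healthy mice it was higher in scaffold than in lung by 1.92 ± 0.44 (edgeR adjusted p = 0.0203) and higher in scaffold than in spleen by 2.53 ± 0.46 (adjusted p = 0.0034), and 1 of the 5 genes was called in each contrast, where 5.95% and 15.6% of all genes were called. The 2 differences, once shared barcodes were assigned, were 2.26 ± 0.63 (edgeR adjusted p = 0.0259) and 4.07 ± 0.74 (adjusted p = 0.00063), and Cxcl1 and Cxcl12 were also called between healthy scaffold and spleen, at 5.24 ± 1.58 and 4.09 ± 1.24 (adjusted p = 0.0214 and 0.0221). That setting called 1658 genes higher and 943 lower of 10943 between healthy scaffold and spleen, and 584 and 594 between healthy scaffold and lung. The healthy spleens of days 7, 14 and 21 then held 1, 42 and 0 UMIs of Cxcl2, 1, 0 and 0 of Cxcl1, and 1, 1 and 0 of Cxcl12. Between healthy lung and spleen no member was called, with 0.699% of all genes called and 0 members at an unadjusted p under 0.05. In tumour-bearing mice, Cxcl2 was higher in lung than in spleen by 2.54 ± 0.44 (edgeR adjusted p = 0.0124; 1 of 5 called, 6.63% of all genes). Scaffolds of tumour-bearing mice exceeded spleens in all 3 chemokines: Cxcl2 by 2.94 ± 0.45 (edgeR adjusted p = 0.00071), Cxcl1 by 3.71 ± 0.97 (adjusted p = 0.016) and Cxcl12 by 3.13 ± 0.96 (adjusted p = 0.0355), so that 3 of 5 genes were called against 16.6% of all genes. Between tumour-bearing scaffold and lung 0 of 5 were called, with 12.7% of all genes called and 2 members at an unadjusted p under 0.05, and DESeq2 was not run on tissue contrasts. For those 2 the difference of scaffold from lung was -2.61 ± 0.91 log2 units in Cxcr2 (edgeR adjusted p = 0.0701) and 1.98 ± 0.93 in Cxcl1 (adjusted p = 0.168). Without the day as a block none of these calls was made, and each was lost in at least 1 fit that left out a day. Of 11158 genes the fit with no block called 606 higher and 370 lower between healthy scaffold and spleen. It called 703 and 324 between tumour-bearing scaffold and spleen. Between healthy scaffold and lung it called 35 and 42, and between tumour-bearing lung and spleen 24 and 19.

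The cells were clustered without the 5 genes, and clusters were named from marker genes with the ending "-like", because the names rest on RNA alone. Neutrophil-like cells, 6333 in 5 clusters, made up 38.1%, 57.0% and 64.4% of the kept cells of tumour-bearing lungs at days 7, 14 and 21, against 6.91%, 5.57% and 1.46% in healthy lungs. In scaffolds they made up 4.97%, 13.2% and 40.7% in tumour-bearing mice, against 0.71%, 0.48% and 2.80% in healthy mice. In spleens they made up 9.56%, 41.8% and 48.9% in tumour-bearing mice, against 0.62%, 1.45% and 1.76% in healthy mice. No share of a tumour-bearing library was reached by a healthy library of its tissue.

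Neutrophil-like cells carried 91.5% of all Cxcr2 UMIs, although they were 25.8% of the cells. In tumour-bearing libraries they carried 93.6%, against 50.1% in healthy libraries. A further 37.5% of the healthy Cxcr2 UMIs lay in a cluster that was given no name, led by Irg1 and Niacr1. This cluster had 533 cells, of which 255 came from tumour-bearing scaffolds and 239 from healthy scaffolds; 6 of 15 neutrophil markers were raised in it, and none was among its 10 leading genes. In B and T cell-like cells of tumour-bearing lungs and spleens, 3.84% to 17.9% of cells held a Cxcr2 UMI, beside 61.6% to 95.2% of neutrophil-like cells; the median depths were 387.5 to 885 and 811.5 to 1128 UMIs. Cxcr2 was called higher in T cell-like cells of tumour-bearing lung, by 4.21 ± 0.79 (edgeR adjusted p = 0.0011; 0.951% of 1998 genes called; the tumour-bearing lung of day 21, with 14 such cells, was dropped). It was also called higher in B cell-like cells of tumour-bearing spleen, by 5.46 ± 0.65 (edgeR adjusted p = 1.15e-05; 1.02% of 5220 genes called; the healthy spleen of day 21, with 9 such cells, was dropped). In T cell-like cells of tumour-bearing spleen it was higher by 3.71 ± 0.76 (edgeR adjusted p = 0.0040; 1.25% of 1998 genes called; the healthy spleen of day 21, with 4 such cells, was dropped). In alveolar macrophage-like cells of tumour-bearing lung it was higher by 4.16 ± 0.99 (edgeR adjusted p = 0.0068; 0.653% of 1837 genes called), from 5 and 8 UMIs at days 7 and 14, against 1, 2 and 0 UMIs in healthy lungs; the tumour-bearing lung of day 21, with 17 such cells, was dropped, and the fit had 1 residual degree of freedom. The same lymphoid cells held S100a8 and S100a9, which encode calcium-binding proteins abundant in neutrophils. Their ratio of Cxcr2 to 1000 UMIs of these 2 genes was 24.8, 20.1 and 25.9 in tumour-bearing lungs, beside 36.8, 18.4 and 11.8 in neutrophil-like cells. In tumour-bearing spleens the ratio was 57.7, 10.8 and 18.1 in lymphoid cells and 22.0, 4.92 and 2.83 in neutrophil-like cells. The part of free RNA in these counts was not tested.

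**Figure D3:**
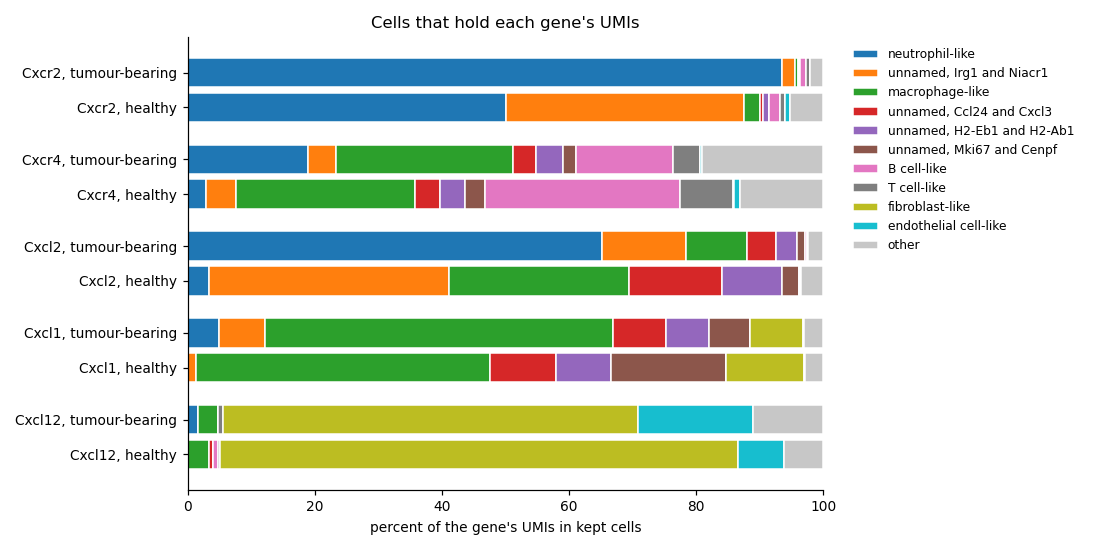
Share of each gene's UMIs, in percent, by the cells that carried them, over the tissues together, with the bar of tumour-bearing libraries above that of healthy ones. Neutrophil-like cells carried 65.1% of Cxcl2 in tumour-bearing libraries, against 3.40% in healthy libraries.

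The cells that carried Cxcl2 differed between tumour-bearing and healthy libraries. Neutrophil-like cells held 93.9% of its UMIs in tumour-bearing lungs, against 7.62% in healthy lungs, where macrophage-like cells held 25.2% and alveolar macrophage-like cells 23.2%. In spleen they held 79.1% in tumour-bearing mice, against 2.67% in healthy mice. These healthy shares rest on 302 Cxcl2 UMIs in lungs and 150 in spleens. Of them, 122 and 89 came from the libraries of day 21, which held 16 and 0 with shared barcodes assigned. The shares by tissue were not taken again with barcodes assigned. In scaffolds neutrophil-like cells held 38.3% in tumour-bearing mice, against 3.20% in healthy mice. That share varied from 7.21% in the tumour-bearing scaffold of day 7 to 68.3% in that of day 21, against 0.608% to 3.90% in healthy scaffolds, so that the library of day 21 set most of the pooled value. The cluster led by Irg1 and Niacr1 held 26.5% of Cxcl2 in tumour-bearing scaffolds, against 40.1% in healthy scaffolds, and macrophage-like cells held 16.1% in tumour-bearing scaffolds, against 28.1% in healthy scaffolds. That unnamed cluster had the highest Cxcl2 level of the cells described here, 9583, 8966 and 10826 CPM in tumour-bearing scaffolds at days 7, 14 and 21, against 10701 and 17477 in healthy scaffolds at days 7 and 21. Its level was therefore high with or without a tumour. Outside the neutrophil-like class, Cxcl2 differed by 0.43 ± 0.52 between tumour-bearing and healthy lungs (edgeR adjusted p = 0.997), and 0 of the 5 genes were called there, with 0% of 10624 genes called and 1 member at an unadjusted p under 0.05. DESeq2 was not run on classes of cells. Outside the neutrophil-like class of tumour-bearing mice, Cxcl2 was higher in scaffold than in lung by 2.26 ± 0.53 (edgeR adjusted p = 0.0194), where 7.13% of genes were called; in whole libraries it was not called. In monocyte-like cells of tumour-bearing mice Cxcl2 was higher in scaffold than in lung by 2.05 ± 0.43 (adjusted p = 0.0175) and higher in scaffold than in spleen by 3.62 ± 0.52 (adjusted p = 8.95e-05), where 0.454% and 1.09% of 2205 genes were called by edgeR.

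Cxcl1 lay mainly in macrophage-like cells and hardly in neutrophil-like cells. Macrophage-like cells held 49.9% of its 865 UMIs, beside 15.0% of those of Cxcl2, a cycling cluster led by Mki67 and Cenpf that was given no name held 13.1%, fibroblast-like cells held 10.6% and neutrophil-like cells held 2.08%. In tumour-bearing lung 43 of 61 Cxcl1 UMIs were in macrophage-like cells, and 4 in 3098 neutrophil-like cells that held 6388 Cxcl2 UMIs. In macrophage-like cells of tumour-bearing mice, Cxcl1 stood at 31.8, 10.8 and 44.89 CPM in scaffolds, against 562.8 and 133.1 in lungs of days 7 and 21, from 24 and 19 UMIs; the lung of day 14, with 18 such cells, was dropped. It was lower in scaffold than in lung, with a difference of -3.05 ± 0.70 (edgeR adjusted p = 0.0287; 0.861% of 2207 genes called). With shared barcodes assigned, the whole tumour-bearing lung of day 21 held 5 Cxcl1 UMIs in place of 37. Macrophage-like cells were not fitted again with barcodes assigned, so how far this call rests on shared barcodes was not tested.

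Cxcl12 lay mostly in stromal cells. Fibroblast-like cells were 1.23% of all cells and held 76.4% of Cxcl12 UMIs, and endothelial cell-like cells held 10.7%. In fibroblast-like cells of day 21 the level was 478.4 CPM in tumour-bearing lung, from 9 UMIs in 34 cells, against 465.9 in healthy lung, from 5 UMIs in 24 cells. In scaffolds of day 21 it was 294.4 in tumour-bearing mice, from 27 UMIs in 49 cells, against 696.4 in healthy mice, from 154 UMIs in 66 cells. Of the 42 Cxcl12 UMIs of the tumour-bearing scaffold of day 7, 40 lay in 4 fibroblast-like cells, so that a few cells held nearly all of it. In healthy lungs endothelial cell-like cells held 18 of 36 Cxcl12 UMIs.

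Cxcr4 was spread over many types. Macrophage-like cells held 28.0% of its UMIs, B cell-like cells 21.4% and neutrophil-like cells 12.5%. In spleen B cell-like cells held 35.9% of Cxcr4 in tumour-bearing mice, against 72.6% in healthy mice. In lung they held 13.6% in tumour-bearing mice, against 35.9% in healthy mice, while neutrophil-like cells held 45.1% in tumour-bearing mice, against 9.28% in healthy mice. In scaffolds macrophage-like cells held 57.2% in tumour-bearing mice, against 60% in healthy mice. Within neutrophil-like cells, the share of Cxcr2 among the UMIs of both receptors was 98.9 ± 0.47% in tumour-bearing lungs and 93.1 ± 0.81% in healthy lungs. In spleens it was 96.9 ± 0.81% against 90.1 ± 6.2%, and in scaffolds it was lower, 97.8 ± 1.30% against 99.7 ± 0.56%. The SDs are over 3 libraries, or 2 in healthy lungs and spleens, and each 2-sided exact permutation p was 0.2. The healthy scaffolds of days 7 and 14 held 24 and 18 such Cxcr2 UMIs. Cells outside the neutrophil-like class include the unnamed cluster led by Irg1 and Niacr1. The part of free RNA from neutrophils in their receptor counts was not tested. Outside the neutrophil-like class, this share was 70.4 ± 4.62% in tumour-bearing lungs and 24.5 ± 12.0% in healthy lungs (SD, n = 3 each; exact permutation p = 0.1, 2-sided). In spleen it was 56.5 ± 17.8% in tumour-bearing mice (n = 3) and 11.9 ± 3.33% in healthy mice (n = 2; exact permutation p = 0.2), and in scaffolds 40.3 ± 5.75% in tumour-bearing mice and 41.0 ± 20.6% in healthy mice (SD, n = 3 each; exact permutation p = 1).

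Within neutrophil-like cells, summed per library where 20 or more were present, 3 of the 5 genes passed the filter on low counts; Cxcl1 and Cxcl12 did not. Cxcl2 stood at 856.3, 443.7 and 1702 CPM of those cells in tumour-bearing lungs at days 7, 14 and 21, against 437.1 and 142.3 in healthy lungs at days 7 and 14. The healthy lung of day 21 had 15 such cells and was dropped. The groups lay apart by a narrow margin, and the fitted difference was 2.05 ± 0.48 (edgeR adjusted p = 0.0116). Cxcr4 went the other way: it stood at 55.07, 61.87 and 16.18 in tumour-bearing lungs, from 20, 41 and 55 UMIs, against 291.4 and 284.5 in healthy lungs, from 12 and 10 UMIs. It fell by 1.97 log2 units in tumour-bearing lungs (SE 0.52, edgeR adjusted p = 0.0343). Cxcr2 stood at 5041, 3699 and 2283 in tumour-bearing lungs, against 4322 and 3528 in healthy lungs; the groups overlapped, with a difference of 0.55 ± 0.34 (edgeR adjusted p = 0.572). So 2 of 3 tested members were called, where 1.27% of 5205 genes were called. Both calls were lost without the day as a block (edgeR adjusted p = 0.449 for Cxcl2 and 0.314 for Cxcr4) and with coarser clusters (0.235 and 0.188), and that of Cxcl2 also without day 21 (0.174). Over all genes, 2 were called higher and 1 lower of 5205 with no block. With coarser clusters the counts were 28 and 14 of 4683, and without day 21 they were 31 and 13 of 2310.

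**Figure D4:**
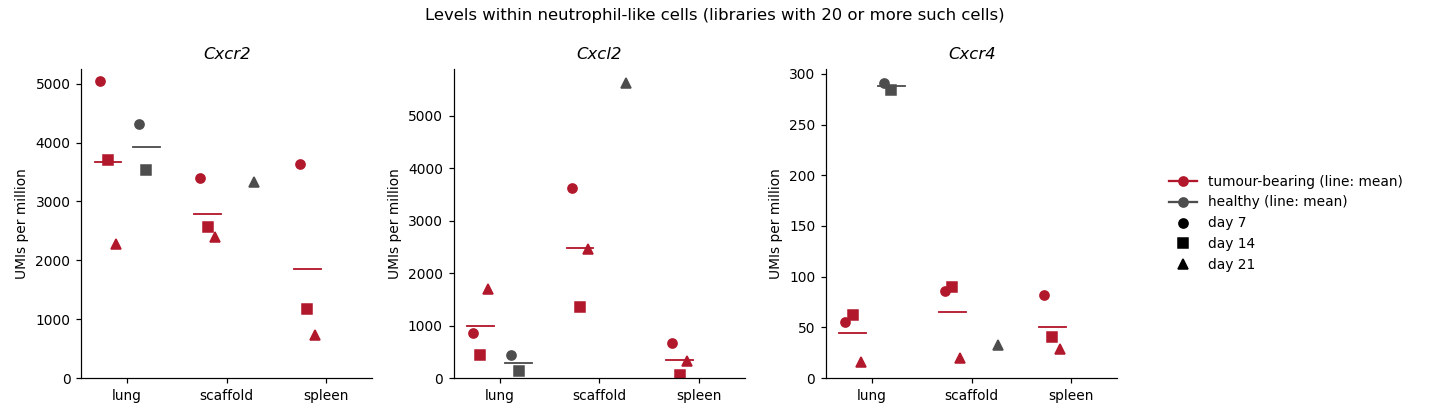
Levels of Cxcr2, Cxcl2 and Cxcr4 in CPM of neutrophil-like cells, for libraries with 20 or more such cells, with tumour-bearing libraries left of healthy ones; symbols give the day and lines the mean of a group. In lung, Cxcr4 lies at 16.18 to 61.87 in tumour-bearing mice and at 284.5 and 291.4 in healthy mice, whereas Cxcr2 overlaps.

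The neutrophil-like cells of different libraries fell into different clusters. A cluster led by Sycp2, Steap4, Rufy4 and Prok2, here called the Prok2 cluster, held 97.3% of these cells in tumour-bearing lung at day 7 and 81.3% at day 14, against 98.1% and 96.8% in healthy lung. At day 21, 65.4% of those in tumour-bearing lung were in a cluster led by Saa3 and Il1r2 and 28.3% in a cluster led by Stfa3. Within the Prok2 cluster alone, Cxcr4 stood at 57.68, 74.91 and 14.67 in tumour-bearing lungs, against 294.4 and 269.5 in healthy lungs. Cxcl2 there stood at 850.7, 542.6 and 1613 in tumour-bearing lungs, against 441.6 and 149.7 in healthy lungs. Both orders were the same within this cluster as in the class. The cluster held most of the class in each of these libraries except that of day 21, so the orders are not separate results. Cxcr4 in the cluster came from 20, 37 and 2 UMIs in tumour-bearing lungs, against 12 and 9 in healthy lungs. After each cell was thinned to 300 UMIs, a Cxcr4 UMI was found in 1.94%, 3.40% and 0% of its cells in tumour-bearing lungs, against 11.8% and 8.33% in healthy lungs, and without thinning in 4.14%, 7.90% and 1.94% of cells in tumour-bearing lungs, against 19.6% and 15% in healthy lungs. Beside these levels, the summed level of 16 genes known to be induced when tissue is dissociated, such as Fos and Socs3, ranged from 15182 to 25377 in neutrophil-like cells of tumour-bearing lungs, against 23047 to 40573 in healthy lungs. Single genes of this list went both ways in these cells of tumour-bearing lung. Socs3 was called higher, at 1.77 ± 0.46, and Nr4a1 lower, at -2.16 ± 0.54 (edgeR adjusted p = 0.027 and 0.020). The part of this list in the Cxcr4 and Cxcl2 differences was not tested.

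Across tissues of tumour-bearing mice, neutrophil-like cells of scaffolds and of lungs exceeded those of spleens in Cxcl2. Those of scaffolds stood at 3622, 1365 and 2456 CPM at days 7, 14 and 21, against 663.6, 56.81 and 324.7 in spleens, which did not overlap. Scaffold exceeded spleen by 2.95 ± 0.34 (edgeR adjusted p = 1.96e-09), and lung exceeded spleen by 1.72 ± 0.33 (adjusted p = 5.28e-05), although single libraries of lung and spleen overlapped. Scaffold exceeded lung by 1.24 ± 0.32 (edgeR adjusted p = 0.0653), with values that overlapped. Cxcr2 was higher in lung than in spleen by 1.06 ± 0.29 (edgeR adjusted p = 0.0049), with 5041, 3699 and 2283 in lungs against 3644, 1167 and 738.1 in spleens, which overlapped. Of the 3 genes tested, 0 were called between scaffold and lung, 2 between lung and spleen and 1 between scaffold and spleen, where 0.327%, 26.1% and 20.9% of 5205 genes were called; between scaffold and lung 1 was under an unadjusted p of 0.05. Without the day as a block none was called (edgeR adjusted p = 0.207 for Cxcl2 between lung and spleen and 0.0671 between scaffold and spleen), and both calls between lung and spleen were lost without day 21. Over all genes the fit with no block called 18 higher and 206 lower between lung and spleen. Between scaffold and spleen it called 15 and 41. The fit without day 21 called 23 and 145 of 2310 between lung and spleen. In the same cells 11 of 15 dissociation genes tested were higher in lung than in spleen and 11 of 15 higher in scaffold than in spleen, where 10.2% and 7.44% of all genes tested were called higher, with summed levels of 14034 to 23485 in scaffolds and 15182 to 25377 in lungs, against 5403 to 16048 in spleens. Their part in the Cxcl2 differences was not tested.

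**Figure D5:**
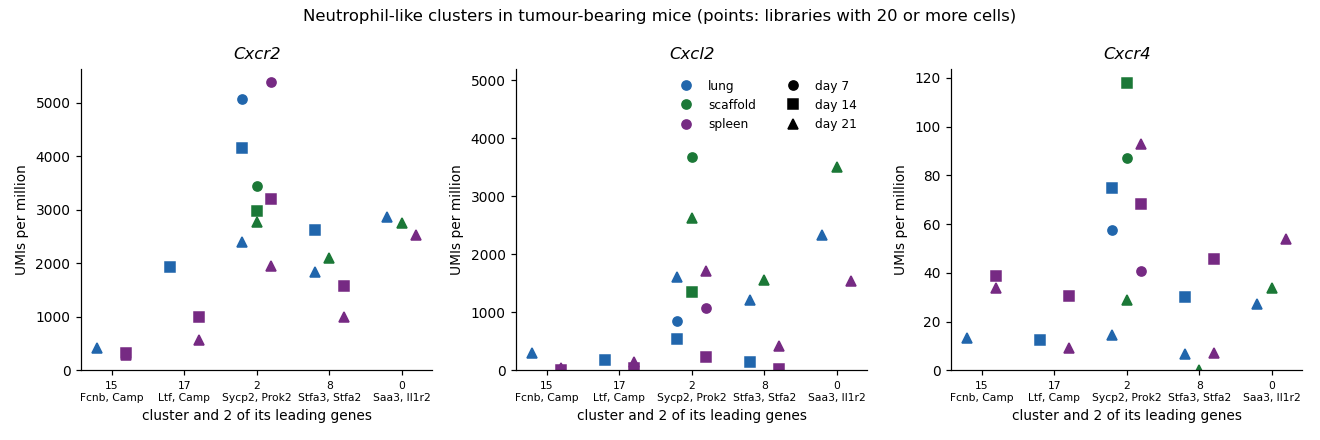
Levels of Cxcr2, Cxcl2 and Cxcr4 in CPM in each of the 5 neutrophil-like clusters of tumour-bearing libraries with 20 or more such cells (colours give the tissue, symbols the day), from the cluster led by Fcnb and Camp on the left to that led by Saa3 and Il1r2 on the right. Over these libraries together, Cxcr2 and Cxcl2 are lowest in the Fcnb and Ltf clusters (15 and 17), with Cxcr2 at 302 and 1035 and Cxcl2 at 39 and 55.7.

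Spleens and scaffolds of tumour-bearing mice also differed in which neutrophil-like clusters they held. In scaffolds 97.4% of these cells at day 7 and 81.7% at day 14 were in the Prok2 cluster, and 56.5% at day 21 in the Saa3 cluster. In spleen 83.5% at day 7 were in the Prok2 cluster. At day 14, 40.6% of those in tumour-bearing spleen were in the Prok2 cluster, 32.9% in a cluster led by Ltf, Camp and Ngp and 19.2% in one led by Fcnb that also held cycling genes; at day 21, 31.1% were in the Saa3 cluster, 28.6% in the Fcnb cluster and 26.6% in the Stfa3 cluster. Ltf, Camp, Ngp and Fcnb encode granule proteins made by immature neutrophils. Over all tumour-bearing libraries, Cxcr2 stood at 302 CPM in the Fcnb cluster, 1035 in the Ltf cluster, 1771 in the Stfa3 cluster, 2836 in the Saa3 cluster and 3841 in the Prok2 cluster, of whose 10 leading genes Cxcr2 is one. Cxcl2 stood at 39 in the Fcnb cluster and 55.7 in the Ltf cluster, and at 1062 in the Stfa3 cluster, 1037 in the Prok2 cluster and 2504 in the Saa3 cluster. Cxcr4 was 7.8 to 61.5 in these 5 clusters. Cxcr2 and Cxcl2 were thus both low in the clusters with granule genes. These pooled levels mix days, since the Prok2 cluster held most cells of day 7 and the Saa3 cluster was filled mainly at day 21, and within day 21 the order of those 2 clusters varied by tissue. Cxcr2 then stood at 2875 in the Saa3 cluster and 2398 in the Prok2 cluster of tumour-bearing lung, at 2755 and 2777 in those of scaffold, and at 2527 and 1950 in those of spleen. Cxcl2 stood at 2335 in the Saa3 cluster and 1613 in the Prok2 cluster of lung, at 3495 and 2627 in those of scaffold, and at 1536 and 1718 in those of spleen. Cxcr4 stood at 27.2 in the Saa3 cluster and 14.7 in the Prok2 cluster of lung, at 33.6 and 28.9 in those of scaffold, and at 53.9 and 92.9 in those of spleen. Those Cxcr4 levels came from only 41 and 2 UMIs in lung, 15 and 5 in scaffold, and 8 and 4 in spleen. The cell clusters were drawn from the same cells, so these levels are a description with no test.

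Ligand and receptor were often found in the same cell. In tumour-bearing lung at day 21, after thinning to 300 UMIs, 706 of 2178 neutrophil-like cells held a Cxcl2 UMI and 380 of these, or 53.8%, also held a Cxcr2 UMI, beside 51.8% of the cells without Cxcl2. In tumour-bearing spleen at day 7 the shares were 88% of 25 cells with Cxcl2 and 67.7% of those without. In tumour-bearing scaffold at day 7 they were 45.2% of 31 cells with Cxcl2 and 60% of those without. The order of the 2 shares thus varied between libraries. A Cxcr4 UMI was found in at most 15 thinned cells of any tumour-bearing library.

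The genes around this axis were followed in lists. Among 8 other receptors of neutrophil attractants and growth factors, 5 rose in tumour-bearing lung and 6 in tumour-bearing spleen, where 6.16% and 2.79% of all genes tested rose. Their medians were 2.74 and 3.65 log2 units, beside -0.22 and -0.03 over all genes. Csf3r, the receptor of the growth factor G-CSF, and C5ar1, which binds the complement fragment C5a, were among those that rose in both, and the formyl peptide receptors Fpr1 and Fpr2 were at 4.31 and 4.28 in spleen. Of 13 mature neutrophil genes, 13 rose in lung and 9 in spleen, with medians of 4.57 and 4.09; Ly6g, a surface protein of mouse neutrophils, was at 6.38 in lung, and Lrg1 and Cd177 were at 5.68 and 5.37 in spleen. The summed level of these genes was 50503 to 183647 CPM in tumour-bearing lungs against 4786 to 6646 in healthy lungs, 5086 to 68548 in tumour-bearing scaffolds against 1205 to 5443 in healthy scaffolds, and 21339 to 175154 in tumour-bearing spleens against 2900 to 8634 in healthy spleens. Cxcr2 thus rose beside 13 of these 13 genes in lung and 9 in spleen. Outside the neutrophil-like class its differences of 2.71 ± 0.60 in lung and 2.63 ± 0.64 in spleen were not called (edgeR adjusted p = 0.181 and 0.0886), where 0% and 0.461% of 10624 genes were called.

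Of 4 tested other ligands of CXCR2 and their binding proteins, 1 rose in lung, Cxcr1, which encodes a receptor akin to CXCR2, at 4.42, and 0 in scaffold or spleen. Of 4 tested genes of the CXCL12 axis 0 were called between tumour-bearing and healthy libraries in any tissue. Between tissues some were called. Cxcl14 of that list was higher in scaffold than in spleen, by 3.95 in tumour-bearing mice and 3.45 in healthy mice. Cd74 was lower in neutrophil-like cells of tumour-bearing lung than in those of spleen, at -2.56. Of 10 genes of adhesion, 2 rose in lung: Selplg, and Selp, which encodes P-selectin, at 4.50. Of 4 tested cytokines that induce CXC chemokines, 2 rose in lung and in spleen, Il1b and Osm in both. Of 10 genes of receptor signalling and desensitisation, 4 rose in lung (Gnai2, Gnai3, Adrbk1 and Arrb2) and 1 in spleen (Rgs18). Of 7 feedback genes of NF-kB, 2 rose in lung, Nfkbiz and Zfp36, and 0 in spleen, and of 16 dissociation genes 9 rose in lung and 2 in spleen, with a summed level of 12806 to 14579 in tumour-bearing lungs against 3114 to 7107 in healthy lungs. Cxcl2 in lung moved together with these dissociation genes, and their part was not tested. In scaffold, where 0.108% of all genes rose, Selp and Ly6g rose and no other listed gene was called. In tumour-bearing mice, scaffold exceeded spleen in Ppbp by 6.61 and in Cxcl3 by 5.21 log2 units, both encoding further ligands of CXCR2. Cxcl3 was also higher in healthy scaffold than in healthy lung, by 3.78. Vcam1, of the adhesion list, was lower in lung than in spleen of tumour-bearing mice, at -4.48. It was also lower in healthy scaffold than in healthy spleen, at -3.21. Among the cytokines, Tnf was lower in neutrophil-like cells of tumour-bearing lung than in those of spleen, at -1.82, and Il1b higher, at 1.35.

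Over the 18 libraries, each gene had its own nearest genes by Pearson's r of log2 CPM, a description in which libraries share tissue and depth. Cxcr2 was nearest to Pim1 (r = 0.979), Klra17 and Tnfsf14; Cxcl2 to Ccrl2 (0.955), Chmp4b and Rnf149; Cxcl12 to Srpx2 (0.929), Col12a1 and Cttn. Cxcl1 was nearest to Srxn1 (0.877), Mmp13 and Jag1, and Cxcr4 to Tagap1 (0.943), Gm21811 and Ankrd12. Ccrl2 is a chemokine receptor-like protein that binds chemerin, and Col12a1 a collagen of connective tissue. Among the 5 genes, Cxcl12 and Cxcl1 were the closest pair (r = 0.745) and Cxcl12 and Cxcr4 the most opposed (r = -0.710).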

How the data were processed

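Each library came as 1 deposited table of UMI counts, not normalised, with genes against cell barcodes; per the submitters' processing notes the build was mm10 and Seurat version 2 was used. No source used here names the aligner, the annotation or how the authors called cells. Barcodes with 200 or more genes and under 20% mitochondrial UMIs were kept. Log-normalised counts without the 5 genes were clustered (2000 variable genes, 30 principal components, 15 neighbours, leidenalg 0.10.2 at resolution 1, 35 clusters); a name needed 3 raised markers and agreement with the 10 leading genes, and 9 clusters stayed unnamed. No doublets were removed. Counts summed per library, or per class with 20 or more cells, were fitted with edgeR 4.0.16 (R 4.3.3; TMM, filterByExpr, quasi-likelihood, Benjamini-Hochberg adjusted p under 0.05). The test gives no standard error, so the SE of a fitted log2 difference is its absolute value divided by the square root of its F statistic. Tumour effects had tissue and day as a block, and tissue contrasts had group and day. Samples of the same tissue and day carry the same replicate number, and deviations of these pairs correlated across genes at 0.185 to 0.625 in 9 of 9 pairs. Shares were compared by 2-sided exact permutation tests (scipy 1.17.1). Alternatives included DESeq2 1.42.0, other filters, leaving out days, barcode assignment and clustering at resolutions 0.5 and 2. On simulated counts, 84 of 100 changes of 2 log2 units were recovered for lung, and 65 of 97 for neutrophil-like cells. The simulated libraries shared 1 mean profile and a fixed spread, with no effect of day or tissue, unlike the real ones. Changes were set only in genes with a mean count over 20, so these counts do not cover rarer genes or smaller changes. Values of listed genes are given only where called and among the 12 with the greatest change in a comparison with a called member. Not all such genes are named. Others named without values were chosen after their values were seen. The 5 genes, the lists and the markers were chosen with earlier results of these data known.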

Additional observations from a re-analysis of the deposited data

How the results depend on the processing

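Of 325 alternative values for single genes, 254 kept their direction and side of the threshold, 38 lost a call, 6 gained a call, 6 shares moved and 21 changed sign, all 21 in values that were not called. The replicate block decided most calls: with no replicate block, 1 member was called for the tumour effect in lung, and 0 for the tumour effect in spleen, for each tissue contrast of whole libraries and for each contrast of neutrophil-like cells; Cxcl1 in scaffold was then -0.52. Leaving out 1 day at a time gave 0 to 2 members in lung, 0 to 1 in spleen, 0 to 2 between healthy scaffold and lung and between healthy scaffold and spleen, 0 to 1 between tumour-bearing scaffold and lung and between tumour-bearing lung and spleen, and 0 to 4 between tumour-bearing scaffold and spleen; in neutrophil-like cells it gave 1 for the tumour effect in lung, 0 to 2 between lung and spleen and 1 to 2 between scaffold and spleen. Calls over all genes moved with these fits too. Without the block, edgeR called 379 genes higher and 65 lower of 11158 in lung, and 72 and 0 in spleen. Without day 14 it called 40 and 2 of 11833 in lung, and 0 and 0 in spleen. Between healthy scaffold and spleen it called 0 and 2 of 11769 without day 7, and 1760 and 1556 of 10645 without day 21. With no filter on low counts, 1 member was called in scaffold (Cxcr2, 2.43, edgeR adjusted p = 5.85e-07) and 2 in spleen, and 1 in the change per week in lung. Of 21786 genes this fit called 125 higher and 66 lower in scaffold, 620 and 289 in spleen, and 82 and 18 in that change. With shared barcodes assigned, 2 members were called in that change and 3 members were called between healthy scaffold and spleen. Between tumour-bearing scaffold and lung 1 was called, and 1 in neutrophil-like cells between scaffold and lung. With day 21 also left out, 1 was called in lung. Over all genes these fits called 1658 higher and 943 lower of 10943 between healthy scaffold and spleen. They called 1099 and 1085 between tumour-bearing scaffold and lung, and 21 and 3 of 5647 in neutrophil-like cells. In lung, with day 21 also left out, 310 and 14 of 10560 were called. Outside the neutrophil-like class 0 were called in lung and 0 in spleen. At resolution 0.5, 0 members were called in neutrophil-like cells of lung, 2 between scaffold and lung, 0 between lung and spleen and 2 between scaffold and spleen, and at resolution 2 the last was 2. Of 4683 genes edgeR called 28 higher and 14 lower in lung at resolution 0.5. Between scaffold and lung it called 104 and 6, between lung and spleen 18 and 112, and between scaffold and spleen 200 and 208. For resolution 2 the last was 555 and 773 of 6215. The receptor balance of neutrophil-like scaffold cells, -1.89 points, became 2.24 at resolution 0.5. At resolutions 0.5 and 2, neutrophil-like cells held 93.0% and 74.7% of Cxcr2 and 67.5% and 43.0% of Cxcl2 (48.9% with barcodes assigned), macrophage-like cells 59.4% and 62.8% of Cxcl1 and 31.7% and 30.2% of Cxcr4, and fibroblast-like cells at resolution 2 held 80.9% of Cxcl12. The sign of Cxcl1 in lung changed with no filter (0.078), with barcodes assigned (1.32; 2.37 without day 21) and outside the neutrophil-like class (1.04), and over fits without 1 day it ran from -1.80 to 1.82; in scaffold that range was -0.52 to 0.92. Cxcr4 in lung, at -0.02, became 0.21 with no filter and in cells with 400 or more genes, 0.047 over all barcodes, 0.061 with DESeq2, 0.071 with each tissue fitted alone and 0.028 outside the neutrophil-like class; without 1 day it ran from -0.23 to 0.74 in lung and from -0.78 to 0.63 in spleen. Cxcl2 in spleen became -1.03 outside the neutrophil-like class. Between scaffold and spleen of neutrophil-like cells, Cxcr2 became -0.15 at resolution 0.5, and Cxcr4 0.70, with a range of -0.60 to 0.40 over fits without 1 day. The cause of these changes was not tested. The alternatives of the change per week, the pairing of the receptor balance by day, the fit outside the neutrophil-like class and that with barcodes assigned and day 21 left out were chosen after seeing the data. Depth limits Cxcl1 and Cxcl12 most, since a library held 0 to 373 UMIs of Cxcl1 and 1 to 164 of Cxcl12.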
